A study of Homo sapiens with 8 samples.

Results

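Replication-dependent histone genes encode the core histones H2A, H2B, H3 and H4 and the linker histone H1 that package newly copied DNA. They were taken as every gene whose symbol, in its older form (HIST1H2AB) or its current form (H2AC4), follows the naming of this family, and each was read from its own probe set on Human Gene 1.0 ST arrays. This gave 57 genes of the 18377 that have a probe set to themselves: 6 of H1, 14 of H2A, 17 of H2B, 9 of H3 and 11 of H4. In all, 49 lie in the HIST1 cluster on chromosome 6, 4 in HIST2 and 3 in HIST3 on chromosome 1, and 1 in HIST4 on chromosome 12. Among them are 4 genes known from the testis (H1-6, H2AC1, H2BC1 and H3-4) and 1 pseudogene (H2BC19P).

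The cells were A549, a line derived from a human lung adenocarcinoma, exposed without overlying medium to gases for 4 hr, with RNA taken 9 hr later. There were 4 groups of 2 arrays: cells exposed in the morning to primary pollutants (an urban mix of hydrocarbons and nitrogen oxides), cells given humidified air in the morning (morning control), cells exposed in the evening to photochemically altered (PCA) pollutants, which are the same mix aged in sunlight, and cells given humidified air in the evening (evening control). The methods describe 1 exposure period for each mixture, so p-values measure the spread between cultures of that period, and the mixture and the time of day cannot be told apart beyond what the controls give. The line carries tumor mutations and grows alone, without the other cells of the airway. Values are log2 signals, which compare arrays for the same gene but not genes with each other: a brighter probe set does not mean a more abundant mRNA.

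Unlike other mRNAs, most replication-dependent histone mRNAs carry no poly(A) tail and end in a stem-loop that is bound by the stem-loop binding protein SLBP. Their amount is tied to the cell cycle: transcription and 3′ end cleavage rise on entry to S phase, and the mRNAs are broken down when DNA synthesis ends or is blocked. In bulk RNA, fewer cells in S phase and less histone mRNA in each such cell cannot be told apart. Members of a class have near-identical coding sequences, so probe sets of different members may read partly the same mRNAs, and members are not independent of each other. Whether the labelling reaction was primed on the poly(A) tail is not given in the sources used here.

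Promoters are shown for the member of each class with the lowest fold change after the PCA pollutants, because the classes differ in the short elements ahead of their start sites. RefSeq promoters on GRCh38.p14 were matched for 51 of the 57 members. The stretches run over the 150 bases before the annotated start, 5′ to 3′ in the direction of transcription: H1-2 at chr6:26056471-26056620 (minus strand), H2AC4 at chr6:26033619-26033768 (minus strand), H2BC14 at chr6:27814872-27815021 (plus strand), H3C10 at chr6:27809901-27810050 (plus strand) and H4C8 at chr6:26285535-26285684 (minus strand). Capitals mark matches, on either strand, to the octamer ATTTGCAT, which octamer factors such as POU2F1 bind, to CCAAT, to TATAAA and to AAACACA, an element of H1 promoters. The H4C8 stretch held none of them.
H1-2: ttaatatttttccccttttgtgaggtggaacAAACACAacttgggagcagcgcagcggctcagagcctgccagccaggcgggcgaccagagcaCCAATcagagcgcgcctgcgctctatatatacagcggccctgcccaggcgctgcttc
H2AC4: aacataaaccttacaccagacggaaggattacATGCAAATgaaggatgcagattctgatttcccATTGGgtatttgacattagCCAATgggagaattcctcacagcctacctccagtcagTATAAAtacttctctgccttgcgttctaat
H2BC14: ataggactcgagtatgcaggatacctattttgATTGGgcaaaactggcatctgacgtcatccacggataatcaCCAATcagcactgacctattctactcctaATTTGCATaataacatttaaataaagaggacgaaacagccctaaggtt
H3C10: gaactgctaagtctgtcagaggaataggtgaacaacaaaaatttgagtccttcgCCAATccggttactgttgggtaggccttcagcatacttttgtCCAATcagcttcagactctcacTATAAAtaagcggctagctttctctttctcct
H4C8: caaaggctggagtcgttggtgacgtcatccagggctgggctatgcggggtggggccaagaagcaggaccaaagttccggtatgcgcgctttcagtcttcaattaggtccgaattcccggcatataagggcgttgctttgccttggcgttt

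The octamer stood in the 250 bases before the start of 10 of 13 H2A and 13 of 16 H2B promoters. It stood in 0 of 6 H1, 0 of 7 H3 and 0 of 9 H4 promoters, against 1.66% of all 27305 promoters. Some H2A and H2B genes lie head to head, with starts 215 to 248 bases apart. A single octamer between such starts counts for both partners, so H2A and H2B counts are not separate. In H2AC6 and H2BC4 the same octamer lies 130 and 123 bases before the starts. AAACACA stood in all 6 H1 promoters and in 0 of the other 45 matched members, against 4.95% of all promoters. CCAAT was found in every matched H1, H2A, H2B and H3 promoter and in 3 of 9 H4 promoters (33.0% of all promoters), and TATAAA in 35 of 51 (11.1%). No matches of different motifs overlapped. Members that fell after the PCA pollutants held the octamer in 5 of 10 matched promoters, and the other tested members in 16 of 39. CCAAT was held by 8 of 10 that fell and by 35 of 39 that did not, and TATAAA by 7 of 10 and 26 of 39.

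Histone genes lay lower in cells exposed to the PCA pollutants than in the evening control. Of 55 members tested, 11 fell, 0 rose and 44 did not pass, where a gene fell if its Benjamini-Hochberg adjusted p from limma was under 0.05 and its signal was at least 1.5-fold lower. Of all 17470 genes tested, 2.66% fell and 0.876% rose by the same limits. The median member stood at 74.3% of its evening control (log2 fold change -0.43), and 49 of 55 lay below 0, against 50.3% of all genes. Adjusted p alone was under 0.05 for 33 members lower (14.1% of all genes) and 0 higher (5.72%). Both PCA arrays lay below both evening control arrays for 45 members (36.6% of all genes) and above both for 5 (31.7%). The count was 19 with arrays centred on their medians, 3 with arrays scaled to ribosomal protein genes (a median member of -0.28, where all genes were at 0.145), 17 without PCA replicate 2 and 0 when limma's treat tested against 1.5-fold itself. The 2 members not tested, H2AC8 and H2AC14, had signals under 30 on all 8 arrays. H2BC1 was tested only because its PCA arrays passed that limit.

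**Figure D1:**
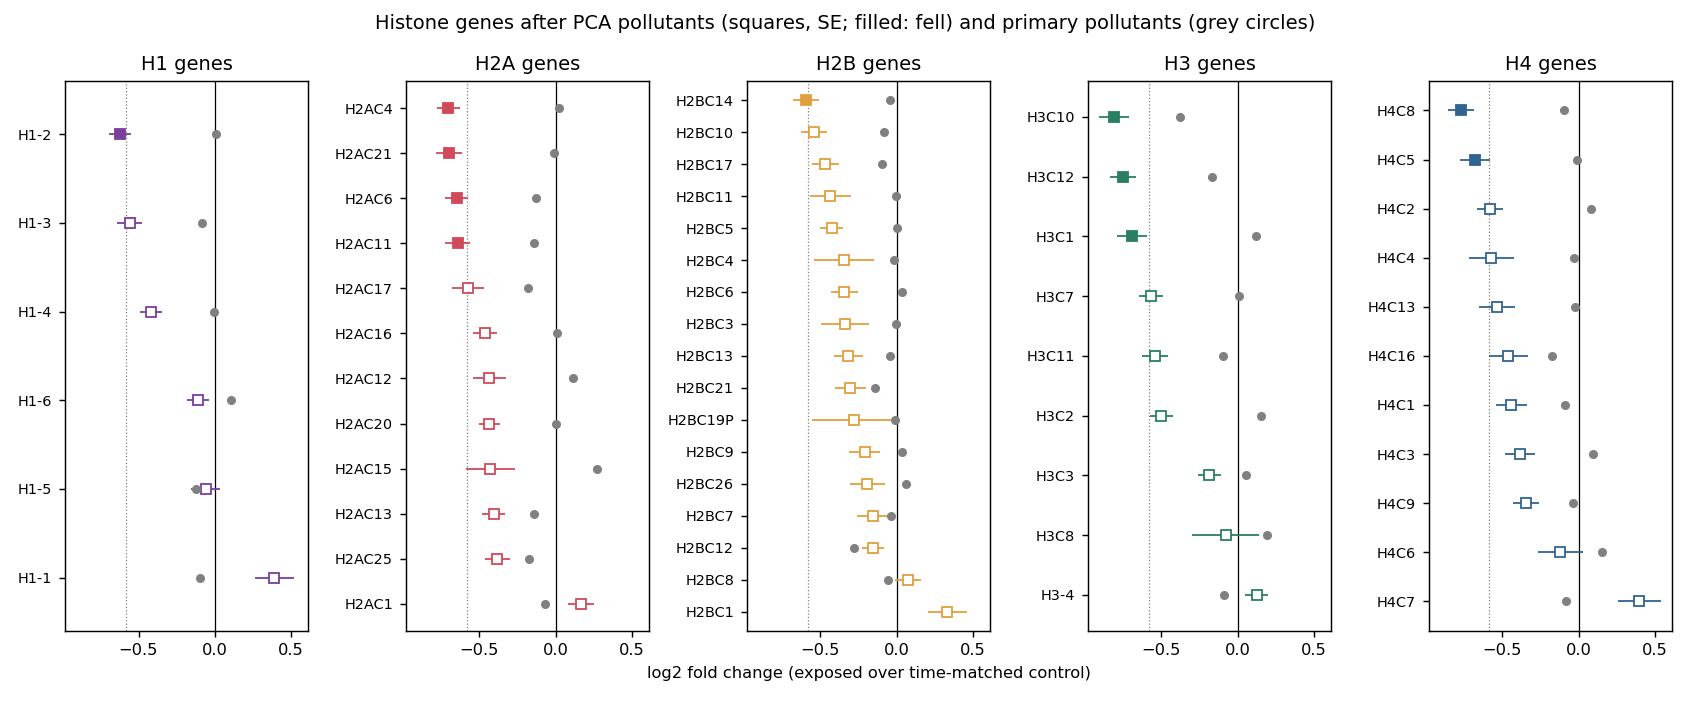
Log2 fold change of every histone gene tested, by class. Squares give PCA pollutants over evening control with the standard error from limma (n = 2 arrays per group), filled where the gene fell, and grey circles give primary pollutants over morning control. The dotted line marks 1.5-fold lower. Most squares lie left of 0, with a median of -0.43, while the circles scatter around 0, with a median of -0.03.

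The linker histones, which bind DNA where it enters and leaves the nucleosome, had a median log2 fold change of -0.26 after the PCA pollutants, and 1 of 6 fell. H1-2 had log2 signals of 7.93 and 7.96 in PCA-exposed cells, against 8.55 and 8.59 in the evening control. The arrays of the groups did not overlap, and H1-2 fell by 0.62 (SE 0.0704, adjusted p = 0.00246). This call was held in 17 of 22 settings and lost with quantile normalization, cyclic loess, scaling to ribosomal proteins, treat and a fold limit of 2. Scaled to ribosomal proteins, the H1 median was -0.12, with 3 of 6 below 0 and 0 that fell. H1-3 read 9.07 and 9.24 with PCA pollutants, against 9.70 and 9.73 in the evening control, a log2 fold change of -0.56 (adjusted p = 0.00524) that did not reach 1.5-fold. H1-4, the H1 probe set of highest signal, read 11.89 on both PCA arrays and 12.31 on both evening control arrays, a change of -0.42 (adjusted p = 0.0103). H1-5 did not follow them: its PCA arrays, at 8.58 and 8.34, lay on either side of the evening control arrays at 8.54 and 8.49. H1-1 read 5.93 and 5.68 in PCA-exposed cells, against 5.29 and 5.54 in the evening control, a dim signal with a change of 0.39 (adjusted p = 0.0654).

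Of the 12 H2A genes tested, 4 fell, with a class median of -0.45. Scaled to ribosomal proteins, the H2A median was -0.31 and 0 of 12 fell. H2A forms the dimer with H2B that is added to the nucleosome after H3 and H4. H2AC4 had log2 signals of 9.86 and 9.90 with PCA pollutants, against 10.61 and 10.56 in the evening control, and fell by 0.71 (SE 0.0753, adjusted p = 0.00226). H2AC21, the H2A probe set of highest signal, had 11.23 and 11.40 in PCA-exposed cells, against 12.01 on both evening control arrays, and fell by 0.70 (SE 0.0845, adjusted p = 0.00292). H2AC21 is the member of the HIST2 cluster that fell, and the other 10 that fell are in HIST1. H2AC6 read 9.34 and 9.40 in PCA-exposed cells, against 10.03 and 10.004 in the evening control, and fell by 0.65 (SE 0.0744, adjusted p = 0.00254). H2AC11 read 7.33 and 7.42 in PCA-exposed cells, against 8.05 and 7.99 in the evening control, and fell by 0.64 (SE 0.0817, adjusted p = 0.00347). In each of these 4 genes, selected for a lower PCA signal, the PCA arrays were the lowest of all 8 (24.5% of all genes tested). H2AC1, a testis gene, was the H2A gene with the highest change, at 0.17 (adjusted p = 0.194), with 5.77 and 5.59 in PCA-exposed cells and 5.502 and 5.524 in the evening control.

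H2B, the partner of H2A in the dimer, had a median of -0.32, and 1 of 17 genes fell. H2BC14 had log2 signals of 11.59 and 11.54 with PCA pollutants, against 12.23 and 12.09 in the evening control, and fell by 0.59 (SE 0.0851, adjusted p = 0.00519). It lay just inside the fold limit, which is 0.585 on the log2 scale, and was called in 14 of 22 settings. The call was lost with quantile normalization, cyclic loess, scaling to ribosomal proteins, treat, a fold limit of 2, the controls exchanged, and without evening control replicate 1 or PCA replicate 2. Scaled to ribosomal proteins, the H2B median was -0.17 and 0 of 17 fell. H2BC10 read 5.38 and 5.45 in PCA-exposed cells, against 6.05 and 5.85 in the evening control, a change of -0.54 (adjusted p = 0.00702). In 14 of 17 H2B genes the PCA arrays were below both control arrays (36.6% of all genes). Of the 17, 5 were lower at an adjusted p under 0.05 (14.1% of all genes). H2BC1, a testis gene whose PCA arrays alone let it enter the comparison, had 5.20 and 4.89 in PCA-exposed cells, against 4.62 and 4.80 in the evening control.

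H3, which with H4 makes up the tetramer at the center of the nucleosome, had the lowest class median on the deposited values, -0.54, and 3 of 9 genes fell. With cyclic loess the H3 median was -0.41 and that of H2A was -0.51. Scaled to ribosomal proteins, the H3 median was -0.40 and 2 of 9 fell. H3C10 had log2 signals of 7.73 and 7.90 with PCA pollutants, against 8.64 and 8.61 in the evening control, and fell by 0.81 (SE 0.0993, adjusted p = 0.00307), to 57.0% of its control. It had the lowest fold change of all members. H3C12 read 7.44 and 7.47 in PCA-exposed cells, against 8.23 and 8.18 in the evening control, and fell by 0.75 (SE 0.0838, adjusted p = 0.00245). H3C1 read 7.34 and 7.58 in PCA-exposed cells, against 8.12 and 8.18 in the evening control, and fell by 0.69 (SE 0.0984, adjusted p = 0.00511). H3C11, the H3 probe set of highest signal, read 10.95 and 10.94 in PCA-exposed cells, against 11.56 and 11.42 in the evening control. Its change was -0.54 (adjusted p = 0.00666), short of 1.5-fold. A probe set shared by H3C11 and H3C6 fell, at -0.63 (adjusted p = 0.0137). The testis H3 gene H3-4 stood at 6.95 and 6.98 in PCA-exposed cells, against 6.78 and 6.90 in the evening control, a change of 0.12 (adjusted p = 0.27).

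H4 had a median of -0.46, and 2 of 11 genes fell. Scaled to ribosomal proteins, the H4 median was -0.32 and 1 of 11 fell. H4C8 had log2 signals of 7.93 and 8.11 with PCA pollutants, against 8.76 and 8.81 in the evening control, which is 58.6% of control (SE 0.0841 on the log2 scale). H4C5 read 8.67 and 8.84 in PCA-exposed cells, against 9.44 on both evening control arrays, and fell by 0.68 (SE 0.0988, adjusted p = 0.00532). H4C2, with 9.30 and 9.39 in PCA-exposed cells, against 9.92 and 9.94 in the evening control, lay just outside the fold limit at -0.58 (adjusted p = 0.00537). H4C3, the H4 probe set of highest signal, read 10.53 and 10.69 in PCA-exposed cells, against 11.05 and 10.94 in the evening control, a change of -0.39 (adjusted p = 0.0355). H4C7 had the highest change of all members, 0.40 (adjusted p = 0.0868), on dim signals of 5.47 and 5.29 in PCA-exposed cells, against 4.83 and 5.13 in the evening control. The classes were not tested against each other.

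**Figure D2:**
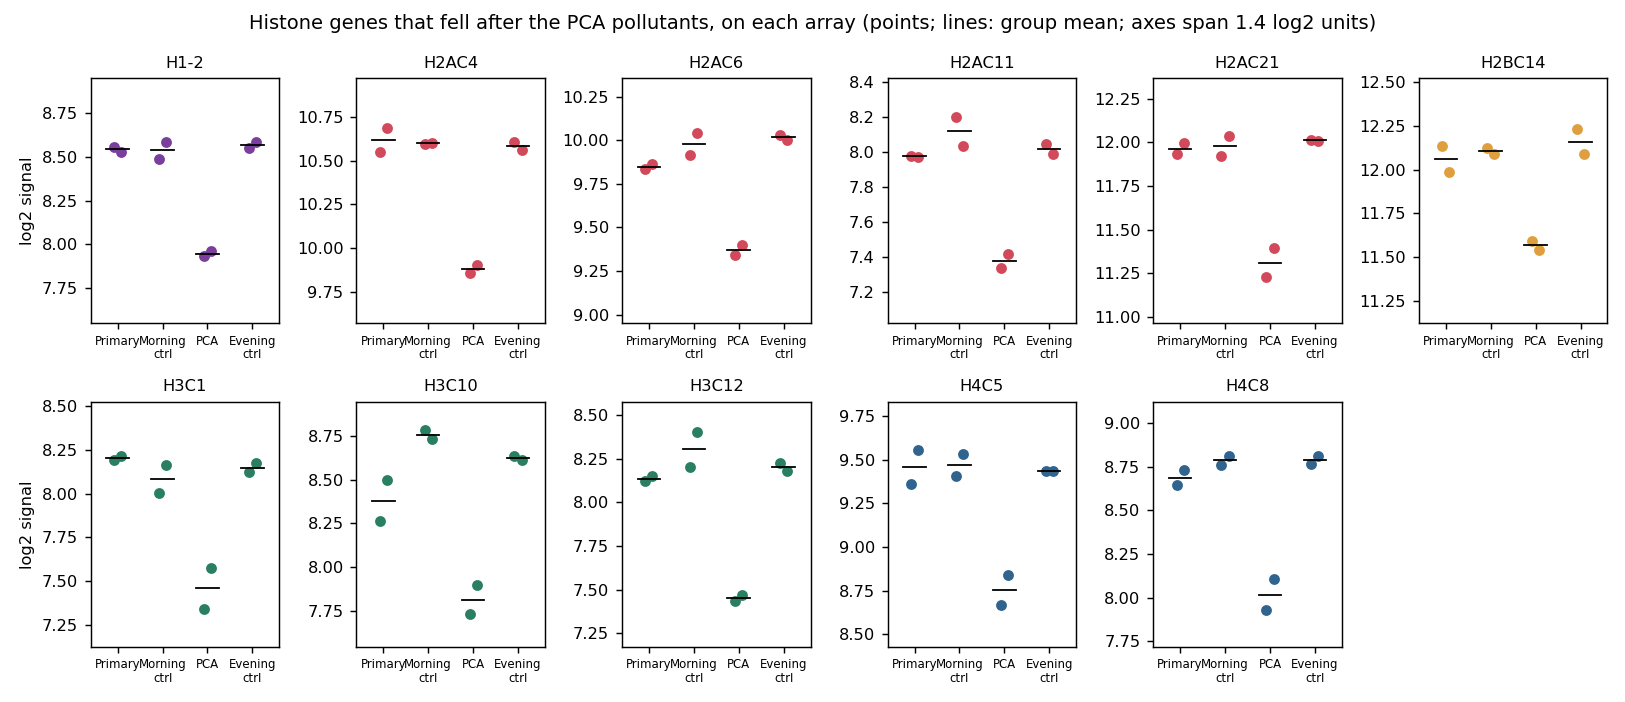
Log2 signal of the 11 histone genes that fell after the PCA pollutants, on each of the 8 arrays (points) with the mean of each group (lines). Every axis spans the same 1.4 log2 units, so distances can be compared between genes. In all 11 genes, which were selected for a lower signal in PCA-exposed cells, both PCA arrays lie below the other 6 arrays. The same holds for 24.5% of all genes tested.

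After the primary pollutants, 0 of 54 members tested fell or rose, where 0% of all 17381 genes tested did. At an unadjusted p under 0.05, 2 members were lower (4.67% of all genes) and 0 were higher (3.29%). With a trended, robust prior in limma 0 members were called as well. The median log2 fold change was -0.03, with 36 of 54 below 0 (52.6% of all genes), and class medians ran between -0.04 for H2A and 0.01 for H3. Scaled to ribosomal protein genes, the median member was at 0.07 and the median of all genes at 0.0901. Both primary arrays were below both morning control arrays for 15 members (21.7% of all genes) and above both for 3 (17.0%). H2BC12 read 8.86 and 8.95 with primary pollutants, against 9.19 and 9.18 in the morning control (change -0.28, adjusted p = 0.449). H3C10 read 8.26 and 8.50 with primary pollutants, against 8.78 and 8.73 in the morning control (change -0.38, adjusted p = 0.45). These are the 2 members lower at an unadjusted p under 0.05. The other genes that fell after the PCA pollutants had primary changes between -0.17 in H3C12 and 0.12 in H3C1.

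The controls of the 2 times of day were compared in the same way. Evening over morning control, 0 of 54 members were called (0% of 17310 genes), 2 were lower at an unadjusted p under 0.05 (2.18% of all genes) and 0 were higher (2.91%). The median was -0.01, with 29 of 54 below 0 (48.7% of all genes). Both evening arrays were below both morning arrays for 8 members (19.7% of all genes) and above both for 7 (22.1%). Class medians ran from -0.05 in H4 to 0.03 in H1. This comparison shares the evening control arrays with the PCA comparison and the morning control arrays with the primary comparison.

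**Figure D3:**
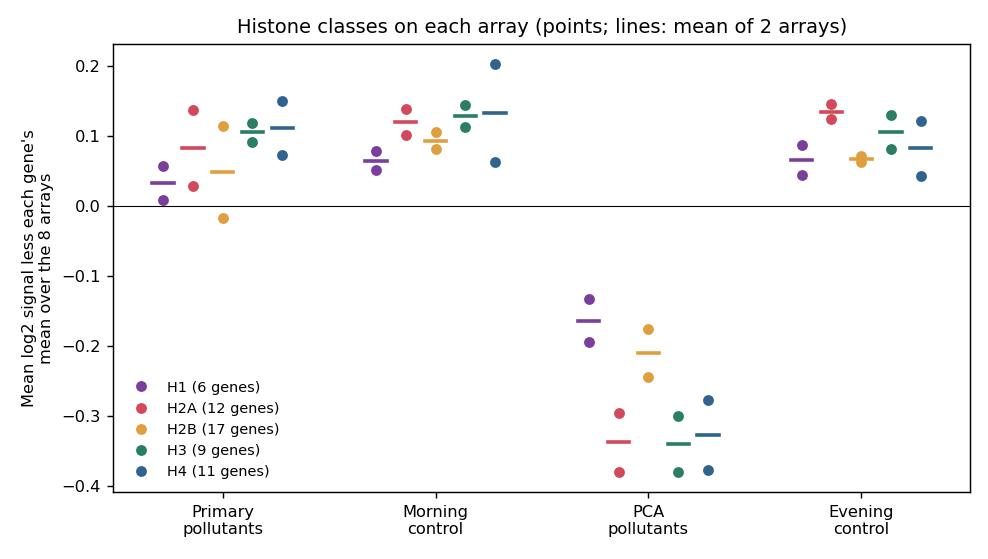
Mean of the log2 signals of each histone class on each array, after subtraction of each gene's mean over the 8 arrays (points, with lines at the mean of the 2 arrays of a group). The PCA arrays range from -0.38 to -0.13 over the 5 classes, and the other 6 arrays from -0.02 to 0.20.

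Averaged over the 55 members, the PCA arrays stood at -0.31 and -0.24 relative to each gene's mean over all arrays, and the evening control arrays at 0.08 and 0.10. The primary arrays stood at 0.04 and 0.11, and the morning control arrays at 0.08 and 0.14. Both PCA arrays were below all 6 other arrays in 41 of 55 members (24.5% of all genes tested): 4 of 6 H1, 11 of 12 H2A, 10 of 17 H2B, 7 of 9 H3 and 9 of 11 H4. PCA replicate 1 was below PCA replicate 2 in 39 of the 55.

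The difference between the 2 responses was tested directly. For H2AC4 the PCA response less the primary response was -0.73 on the log2 scale (SE 0.106, adjusted p = 0.0397). It was the only one of 55 members called: 1 member fell (0.348% of 17540 genes) and 0 rose (0.0912%). On the arrays, H2AC4 had 10.55 and 10.69 with primary pollutants and 10.59 and 10.60 in the morning control. H3C1 had a larger difference of -0.81 with a larger error (SE 0.139, adjusted p = 0.0622). At an unadjusted p under 0.05, 32 members were lower (11.4% of all genes) and 2 were higher (6.2%). The median difference was -0.39, with 47 of 55 members below 0 (52.7% of all genes). The single call was lost under most other settings, among them quantile normalization and each array left out, and 8 members were called with a minimum signal of 100 or a trended, robust prior.

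Members with brighter probe sets lay lower. Of 25 members with a mean log2 signal of 8 or more, all were below 0 after the PCA pollutants, 9 fell, and the median was -0.56. Most other genes of such signal were below 0 as well. Their upper quartiles were 0.026 between 8 and 9, 0.0075 between 9 and 10 and -0.00095 at 10 or more. Of 10 members between 7 and 8, 2 fell and the median was -0.36. Of 20 members under 7, 0 fell, 14 were below 0 and the median was -0.18. Other genes shifted with signal as well, by less: their medians were 0.15 in the dimmest band, -0.01 between 7 and 8 and -0.13 at 10 or more. The share of other genes that fell was 0.166% under 6, 1.63% between 6 and 7, 3.16% between 7 and 8, 3.94% between 8 and 9, 4.41% between 9 and 10 and 2.87% at 10 or more. The PCA arrays had a narrower spread of signals over all probe sets, with interquartile ranges of 2.61 and 2.57, against 2.80 and 2.82 in the evening control. When the arrays were brought to the same spread by quantile normalization, 11 members fell, 7 of them as before, with a median of -0.41, and H1-2, H2AC6, H2BC14 and H4C5 did not. Cyclic loess, which removes differences between arrays along the signal, left 9 that fell, 5 of them as before, with a median of -0.41, and lost H2AC4 and H2AC21 besides those 4. H2AC16, H2AC17, H2BC10 and H4C16 were called under both and not on the deposited values.

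**Figure D4:**
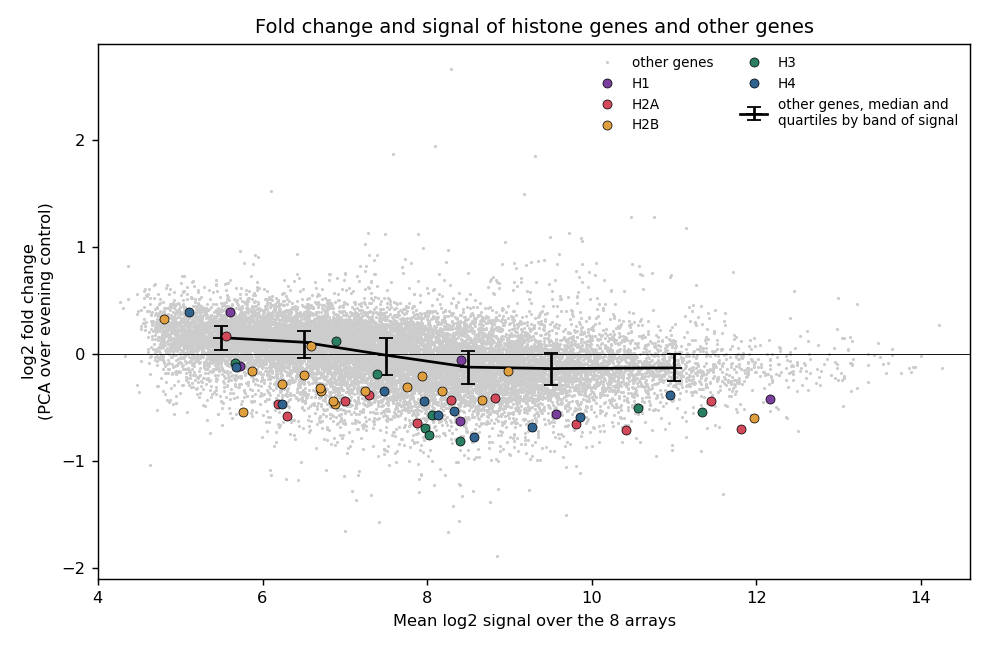
Log2 fold change (PCA over evening control) against mean log2 signal over the 8 arrays for histone genes (colored by class) and all other genes tested (grey). Black bars give the median and quartiles of other genes in 6 bands of signal, drawn near the middle of each band. From a signal of 8 upward the 25 histone genes lie below 0, with medians of -0.54 to -0.62 in the 8 to 9 and 9 to 10 bands, where other genes have medians of -0.12 and -0.13.

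Within the band of 8 or more, class medians were -0.49 for 4 H1 genes, -0.54 for 6 H2A genes, -0.39 for 4 H2B genes, -0.57 for 5 H3 genes and -0.58 for 6 H4 genes. H2B had 10 of its 17 genes under 7, the largest such share of the classes. Both dimmer probe sets and fewer genes that fell were found in H2B, and the part of signal in that count was not tested.

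Many H2A and H2B genes lie head to head and share the stretch between their start sites. Among members there were 9 such pairs, with starts 215 to 248 bases apart. In 7 pairs both partners were tested, and in 6 of these both were below 0. The H2A partner had the lower fold change in all 7, and the brighter probe set in 6. H2AC6 fell while H2BC4, 246 bases away, had a change of -0.34 (adjusted p = 0.232) with 6.93 and 7.08 on the PCA arrays, against 7.39 and 7.30 in the evening control. H2AC11 fell while H2BC11, 248 bases away, had a change of -0.44 (adjusted p = 0.0581). In no pair did both partners fall. The remaining pair, H2AC1 and H2BC1, holds 2 testis genes, and H2BC1 was tested only through its PCA arrays.

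Some replication-dependent histone genes are also known to give polyadenylated mRNA. The 8 members listed as such had a median of -0.43 after the PCA pollutants, with 2 that fell (H1-2 and H2AC6), and the other 47 tested had a median of -0.43, with 9 that fell. The 4 testis genes, H2BC1 among them through its PCA arrays alone, had 0 called and signals under 7, and their median of 0.15 moved to 0.04 with quantile normalization, 0.03 with cyclic loess and 0.29 with scaling to ribosomal proteins. Without the testis genes and the pseudogene, 11 of 50 fell and the median was -0.44.

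A further 16 histone genes are read only by probe sets shared between genes, and were no members. Many of the shared probe sets also name members, so they are not separate from the counts above. Of 17 distinct shared histone probe sets, 6 fell after the PCA pollutants, 0 rose and 15 were below 0, with a median of -0.47, where 2.66% of the genes tested fell, 0.876% rose and 50.3% were below 0. The lowest was the probe set of H4C15 and H4C14, at -0.78 (adjusted p = 0.00187), and its primary change was -0.24. The probe set of H2AC18, H2AC19, H2AC20 and H2AC21 was at -0.60 (adjusted p = 0.00278). The members H2AC13 and H2BC21 did not pass on their own probe sets, at -0.41 and -0.30. The probe set of H3C10 and H2AC13 fell, at -0.72 (adjusted p = 0.00526). That of H2BC18, H2BP1 and H2BC21 fell, at -0.59 (adjusted p = 0.00532), and that of H2BC19P, H2BC20P and H2BC21 did not, at -0.35 (adjusted p = 0.0239). Over the 17 the primary median was -0.06.

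The genes that make, process and handle histone mRNA and protein were counted from lists of the pathway. Of 10 tested genes listed as replication-independent histone variants, most have polyadenylated mRNA that is not confined to S phase. Among the 10 are H2AX and H2BW1, for which this does not hold in full. After the PCA pollutants 0 of the 10 passed both limits, where 2.66% of all genes tested fell and 0.876% rose. In lists as short as this and those below, 0 lies near these shares. Their median was -0.02, against 0.02 with quantile normalization, 0.02 with cyclic loess and 0.12 with scaling to ribosomal proteins. MACROH2A2, a large H2A variant of silent chromatin, was the lowest, with 7.94 and 8.10 on the PCA arrays, against 8.56 on both evening control arrays (change -0.54, adjusted p = 0.00541). H2AZ2, a variant found around active promoters, was at -0.19 (adjusted p = 0.108).

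In the transcription and 3′ end processing list 0 of 22 passed (2.66% of all genes fell, 0.876% rose). The median was -0.12, which moved to -0.04 with quantile normalization, -0.03 with cyclic loess and 0.02 with scaling to ribosomal proteins. WDR33 and CSTF2T, parts of the machinery that cuts and polyadenylates other mRNAs, were at -0.34 (adjusted p = 0.0263) and -0.29 (adjusted p = 0.0321). CDK9, the kinase that releases paused RNA polymerase II, was at -0.19 (adjusted p = 0.0851). Named for their roles after their values were seen, SLBP had 8.59 and 8.70 on the PCA arrays, against 8.58 on both evening control arrays (change 0.06, adjusted p = 0.545). NPAT, the coactivator of histone gene transcription that cyclin E and CDK2 phosphorylate, read 8.14 and 7.90 in PCA-exposed cells, against 8.28 and 8.31 in the evening control (change -0.27, adjusted p = 0.0968).

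In the histone mRNA decay list 0 of 22 passed (2.66% of all genes fell, 0.876% rose). The median was -0.18, with 6 lower by adjusted p alone (14.1% of all genes). The median moved to -0.08 with quantile normalization, -0.07 with cyclic loess and -0.04 with scaling to ribosomal proteins. PNRC2, which links UPF1 to decapping, was at -0.43 (adjusted p = 0.00644), TUT4, which adds uridines to RNA ends, at -0.47 (adjusted p = 0.00999), and XRN1, the main cytoplasmic 5′ to 3′ exonuclease, at -0.50 (adjusted p = 0.011). Of 26 histone chaperone and import genes 0 passed (2.66% of all genes fell, 0.876% rose). Their median was -0.15, against -0.10 with quantile normalization, -0.08 with cyclic loess and -0.0052 with scaling to ribosomal proteins. ANP32E, which removes H2A.Z, was at -0.55 (adjusted p = 0.00452), ATRX, a remodeler that deposits H3.3, at -0.39 (adjusted p = 0.00999), and ASF1B, which carries H3 and H4 to new DNA, at -0.44 (adjusted p = 0.0241).

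Of 45 S phase and DNA replication genes tested, 0 passed (2.66% of all genes fell, 0.876% rose) and 29 were below 0 (50.3%). By adjusted p alone 6 were lower (14.1% of all genes) and 2 higher (5.72%). The median was -0.08, which moved to 0.00332 with quantile normalization, 0.00657 with cyclic loess and 0.06 with scaling to ribosomal proteins. CDC6, which loads the replicative helicase, read 10.16 and 10.15 on the PCA arrays, against 9.74 and 9.53 in the evening control (change 0.52, adjusted p = 0.00895). Under quantile normalization, cyclic loess and scaling to ribosomal proteins CDC6 passed both limits as higher, the 1 gene of the list called there. PRIM1, the catalytic subunit of primase, was at -0.36 (adjusted p = 0.0141) and TYMS, which makes thymidylate, at -0.30 (adjusted p = 0.0289). Evening over morning control, 42 of 45 S phase genes were below 0 (48.7% of all genes), with a median of -0.12 and 0 called, and 30 of 45 were when the arrays were scaled to ribosomal proteins. Of the 57 ribosomal protein genes, whose mRNAs are polyadenylated and long-lived, 0 were called after the PCA pollutants (2.66% of all genes fell, 0.876% rose). Their median was -0.16, which moved to -0.09 with quantile normalization and -0.04 with cyclic loess.

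**Figure D5:**
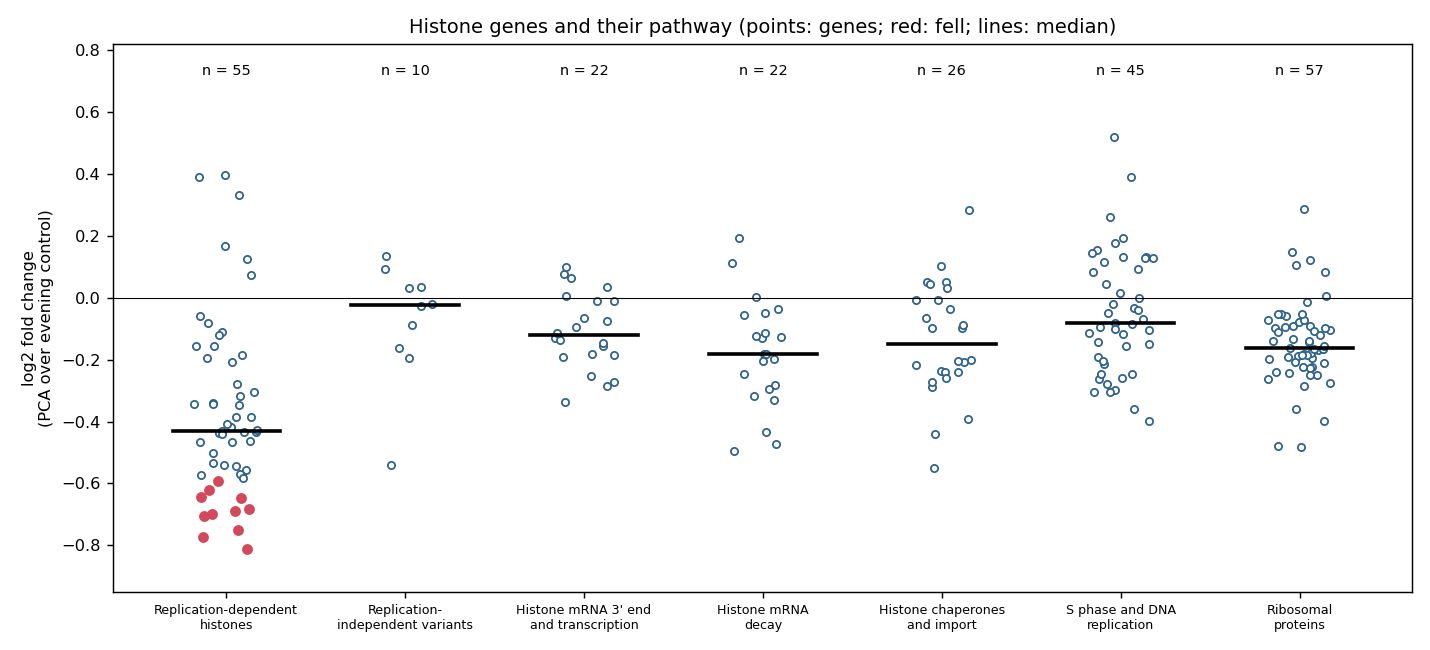
Log2 fold change (PCA over evening control) of each gene tested in the histone family and in 6 other lists, those of its pathway and the ribosomal proteins. Black lines give list medians, and genes that fell are red. The histone median is -0.43, the list medians lie between -0.18 and -0.02, and red points stand in the histone column alone. Of all genes tested 2.66% fell, and in lists this short 0 red points lies near that share.

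Across the 8 arrays, the genes outside the family whose pattern was most like the mean of the tested members were ARFGAP3 (Pearson r = 0.997), DGKH (0.995), NDUFV1 (0.995), PSMB4 (0.994) and LCOR (0.993). These r are a description over 8 arrays in 4 groups, among all genes, and the arrays share their exposure and their normalization. ARFGAP3, which acts on ARF1 at the Golgi, had a change of -0.43 after the PCA pollutants (adjusted p = 0.00768). Of the members, H4C5 and H4C8 had r of 0.995 with the family mean, H1-5 had -0.27 and H2BC1 had -0.84. Each of these is itself part of that mean. H2BC1 was tested only through its PCA arrays, so its negative r follows in part from how it entered.

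The labelled cell type was checked against markers. All 9 epithelial and A549 markers reached a signal of 30, and their summed signal ranged from 51140 to 54016 on the PCA arrays, against 54533 to 57922 in the evening control. One of them, the junction protein CDH1, fell after the PCA pollutants by 1.11 (adjusted p = 0.000665). Of 7 alveolar type II markers, 2 had a mean signal of 100 or more. No endothelial marker did, and 2 leukocyte and 3 fibroblast markers did. No marker was at 0. The endothelial markers summed to 229 and 234 on the PCA arrays, against 202 and 208 in the evening control, all at dim signals. Of 5 fibroblast markers tested after the PCA pollutants 0 passed both limits, and the median was 0.16. By adjusted p alone COL1A1 was lower, at -0.37 (adjusted p = 0.0156), and DCN and COL1A2 were higher, at 0.42 (adjusted p = 0.0361) and 0.28 (adjusted p = 0.046). The fibroblast markers summed to between 645 and 675 on the PCA arrays, against 681 and 692 in the evening control. The part of cell make-up in the histone values was not tested.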

How the data were processed

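Total RNA from A549 cells had been labelled with biotin and hybridized to Human Gene 1.0 ST arrays. The deposited table holds log2 signals per probe set, normalized by the authors (robust multichip average), and the submitters' processing notes name Partek 6.4. The spread was not equal on all arrays, with interquartile ranges from 2.57 on a PCA array to 2.82 on an evening control array. The signals were used as deposited, and no raw scans were used here. Of 28869 probe sets, 19310 carry 1 gene symbol, 1752 several and 7807 none. Symbols come from the platform annotation, with older symbols brought to current ones through RefSeq genes on GRCh38.p14. Each member has 1 probe set of its own, and some members are also named by shared probe sets. Promoters are from RefSeq on the same build.

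A model with 4 group means was fitted in limma 3.58.1 (R 4.3.3, lmFit and eBayes), with 4 residual degrees of freedom before moderation. Probe sets entered a comparison if any of its arrays had a signal of at least 30. Benjamini-Hochberg adjustment ran over every probe set entered, and calls needed an adjusted p below 0.05 as well as a change of 1.5-fold or more. Precision is limited by the number of arrays: for members in the PCA comparison the median standard error on the log2 scale was 0.0878. Members and gene lists were chosen with earlier results of these data known. Named members were, in each class, the brightest, those of smallest p and of highest and lowest fold change for the PCA comparison. Every called member and those beside the fold limit were named too. From each pathway list up to 3 genes of smallest p were named, with SLBP and NPAT for their roles, and from the ribosomal proteins none. Alternatives covered the filter, normalization, prior, limits, controls, replicate block and each array left out. Tables and plots were made in Python 3.11.15 with matplotlib 3.10.9.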

Additional observations from a re-analysis of the deposited data

Results flagged for a closer look

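H2AC4 was flagged because its responses to the mixtures differed by a test of the difference itself. The PCA response less the primary response was -0.73 on the log2 scale (SE 0.106, adjusted p = 0.0397, limma), with a change of -0.71 after the PCA pollutants and 0.02 after the primary pollutants, and both PCA arrays lay below both evening control arrays. The call was lost under most of the other settings.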

How the results depend on the processing

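Of the 11 members that fell after the PCA pollutants, all were kept with no filter, a minimum signal of 100, a trended robust prior, or the 4 arrays of the comparison alone. The count was 19 with arrays centred on their medians, 3 with scaling to ribosomal protein genes, 33 with no fold limit, 0 with a fold limit of 2 and 0 with limma's treat against 1.5-fold. Scaling to ribosomal proteins moved the median of all genes to 0.145 in this comparison. With each array left out the count ran from 10 to 17, with 17 without PCA replicate 2, and no member rose. For the difference between responses, the count of 1 became 0 with no filter, quantile normalization, cyclic loess, ribosomal scaling, treat, a fold limit of 2 and the replicate block, 3 with median centring, 8 with a minimum signal of 100 and 8 with a trended robust prior, and ranged from 0 to 0 with each array left out. Counts for the primary pollutants and between the controls stayed at 0 under every alternative run. No result turned its direction where it had passed the test. Replicate numbers do not pair the arrays (correlations of deviations between -0.106 and 0.06), and the replicate block left 11 calls for the PCA comparison. Dim members are measured least well, and 20 of 55 had a mean log2 signal under 7. The cause of these changes was not tested.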
